A study of Mus musculus with 18 samples.

Results

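The interferon response and innate sensing genes are 40 named genes out of the 54532 genes counted in these cone libraries, and they are defined by a list of symbols that uses no measured value. They comprise the type I interferon receptor (2 genes), sensors and adaptors (10), transcription factors (5), antiviral effectors (17) and regulators (6). RNA was sequenced from cone photoreceptors of wildtype mice, sorted by FACS from 18 retinas for a nuclear GFP (H2BGFP) under the cone promoter SynP136. Albino BALB/c mice were taken at P21 (6 control and 6 Txnip libraries) and pigmented C57BL/6J mice at P35 (3 control and 3 Txnip libraries). Every retina had received AAV8 at birth: controls got the H2BGFP vector alone, and Txnip retinas got it together with AAV8-RedO-Txnip, which expresses the α-arrestin Txnip from the human red opsin promoter. There were no libraries from retinas without vector, so the levels below are those of vector-injected eyes, and the Txnip group differed from its controls in total vector as well as in Txnip. Strain, age and pigmentation went together and cannot be told apart, and whether both strains' libraries were prepared in 1 run is not given in the sources used here, so a run cannot be told apart from strain either.

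Cells detect foreign nucleic acid through cytosolic helicases such as RIG-I (Ddx58) and MDA5 (Ifih1), which signal through the mitochondrial adaptor Mavs, and through Toll-like receptors in endosomes, which signal through adaptors such as Myd88. These routes activate Irf3 and Irf7, which switch on the type I interferon genes. Secreted interferon binds the receptor pair Ifnar1 and Ifnar2, and Stat2 and Irf9 then act at a DNA element, the interferon-stimulated response element (ISRE), in front of a large set of target genes. The targets include proteins that block viral RNA, translation and budding, and also Irf7, Ddx58 and Usp18, so that part of the sensing machinery is itself induced while Usp18 damps the receptor.

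The ISRE core is shown for 5 members because it is the element through which interferon is known to induce many of its target genes; not all members are such targets. RefSeq promoters (GRCm38.p6, 300 bases around a transcription start) were found for 29 of the 40 members. The core, spelled GAAA, any 2 bases and GAAA again and searched on both strands, was present in a promoter of 11 of these 29 members (37.9%), against 3.99% of all 27025 genes in the table. The stretches below run 5′ to 3′ along each gene's own strand, with every match in capitals, also where matches overlap.
Ifit1: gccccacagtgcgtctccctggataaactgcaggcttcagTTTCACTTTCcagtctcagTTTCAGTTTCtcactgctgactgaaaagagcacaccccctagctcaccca
Ifit3: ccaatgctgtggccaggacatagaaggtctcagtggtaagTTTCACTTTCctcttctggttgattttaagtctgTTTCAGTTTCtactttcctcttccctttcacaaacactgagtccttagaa
Isg15: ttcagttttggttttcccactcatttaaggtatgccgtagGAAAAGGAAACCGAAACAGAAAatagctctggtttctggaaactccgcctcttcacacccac
Bst2: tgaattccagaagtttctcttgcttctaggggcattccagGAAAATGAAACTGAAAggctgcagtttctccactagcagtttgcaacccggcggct
Ddx58: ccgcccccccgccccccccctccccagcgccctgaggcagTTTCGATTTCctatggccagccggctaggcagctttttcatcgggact
These lie at chr19:34640745-34640853 on the plus strand (Ifit1), chr19:34583333-34583456 on the plus strand (Ifit3), chr4:156200835-156200936 on the minus strand (Isg15), chr8:71537547-71537642 on the minus strand (Bst2) and chr4:40239776-40239863 on the minus strand (Ddx58). The first match began 104 bases before the start site in Ifit1, 156 in Ifit3, 78 in Isg15 and 130 in Bst2, and the match of Ddx58 lay just after the start. The other members with a match were Eif2ak2, Ifih1, Myd88, Oas1a, Rsad2 and Stat2. No match was found in the windows of Irf7, Irf9, Oasl2 or Lgals3bp, which says only that these letters are not in those windows.

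The libraries held 647712 to 5172156 assigned counts, so that 3 counts, the number a count of 0 allows, corresponded to 0.58 to 4.63 CPM of the total; these floors cover counting error only. Levels are given as CPM (counts scaled to a common library size with edgeR's TMM factors), and a member is called detected in a library with more than 3 counts. Txnip itself had 0 to 3 counts in each control library and at least 663 in each Txnip library, as labelled. All 10 cone markers had more than 3 counts in all 18 libraries and summed to 36390 to 88640 CPM. The summed rod markers were 1325 to 2720 CPM in 16 libraries, and 12080 and 10740 CPM in C57BL/6J control 1 and C57BL/6J Txnip 2, which also stood apart in Müller glia markers (597 and 574 CPM, against 66.2 to 196.6 elsewhere). Replicates are separate libraries from separate retinas by the study's methods, and whether they came from separate animals is not given in the sources used here, so the tests measure the spread between these libraries.

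Of the 40 members, 12 had more than 3 counts in all 18 libraries, 12 in 9 to 17 libraries, 15 in 1 to 8 libraries, and 1 in none. Ifnar1, 4 of the 5 transcription factors and the adaptor Mavs were detected throughout, whereas no antiviral effector was detected in every library. All 17 effectors exceeded 3 counts somewhere, 7 of them in at least 9 libraries and 10 in fewer. A library held a median of 25.5 detected members in BALB/c control, 24 in BALB/c Txnip, 18 in C57BL/6J control and 17 in C57BL/6J Txnip. The highest number was 37, in BALB/c Txnip 3, and the lowest was 14, in C57BL/6J Txnip 1. Both were among the deeper libraries (4699750 and 3750645 counts), whereas the shallowest, BALB/c Txnip 5 and 6 (1131750 and 647712 counts), held 15 each.

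**Figure D1:**
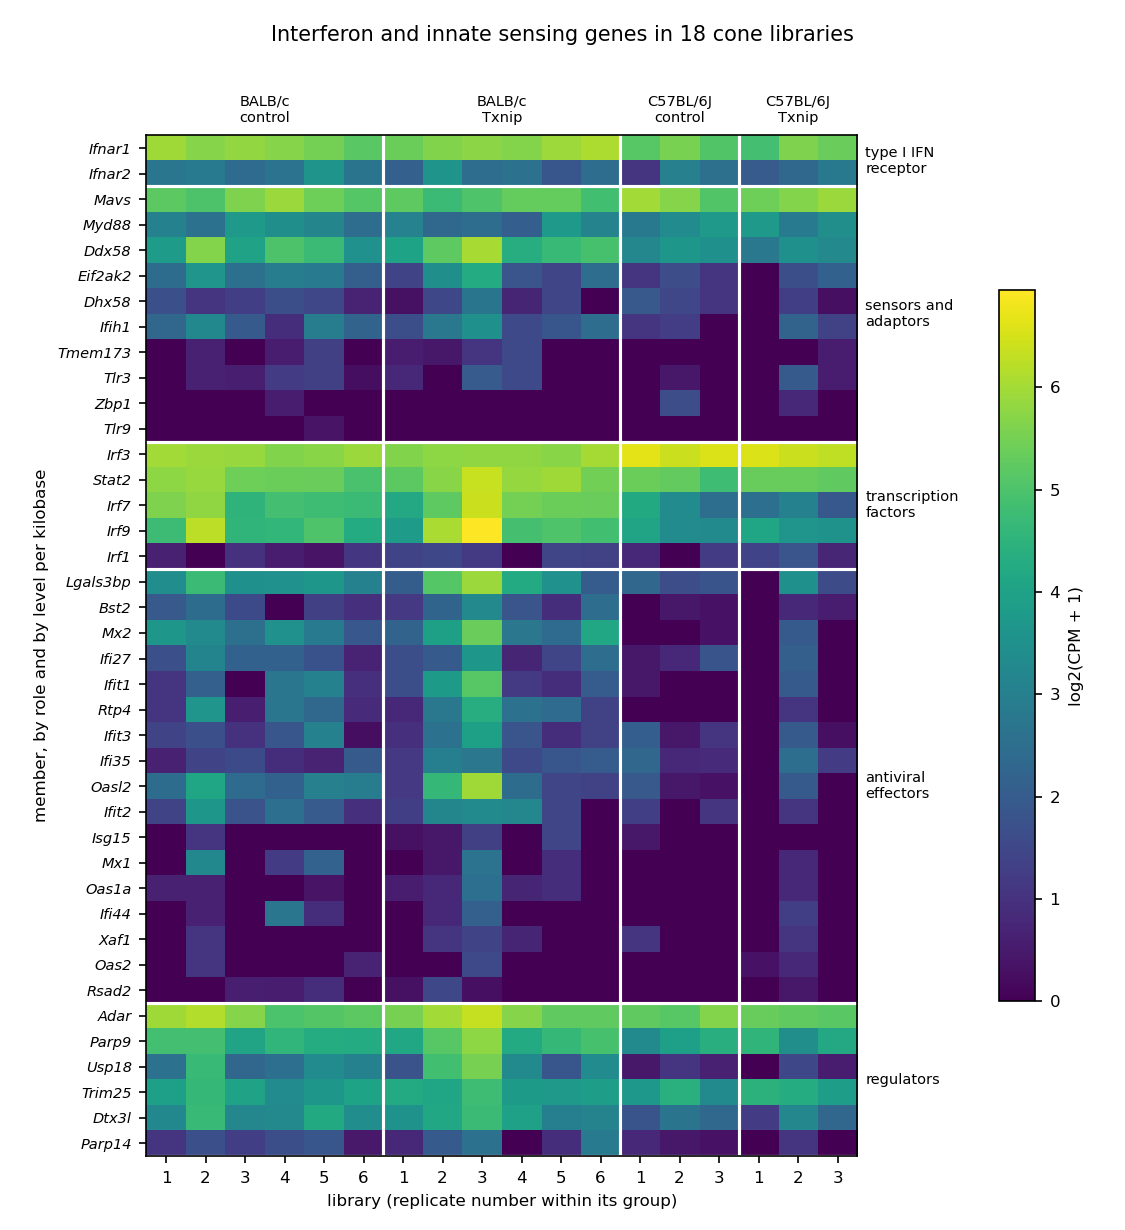
Level of each of the 40 members (rows, grouped by role and ordered by level per kilobase) in each of the 18 libraries (columns), as log2(CPM + 1). Ifnar1, Mavs, Irf3 and Stat2 are detected in all 18 libraries, while the effectors are brightest in BALB/c Txnip 3 and darkest in C57BL/6J Txnip 1.

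Ifnar1, the signalling chain of the receptor, was among the 3 members of highest level per kilobase (7.9 CPM per kb, rank 5842 of 43750 genes with a count). Its level was 34.8 to 61.2 CPM in BALB/c control (median 50.4) and 41 to 67.6 CPM in BALB/c Txnip (median 51). It was 34.3, 45.8 and 32.7 CPM in C57BL/6J control and 28.5, 47.7 and 40.3 CPM in C57BL/6J Txnip, so all groups overlapped. Ifnar2 was lower, at 1.59 CPM per kb, and exceeded 3 counts in 15 libraries. Its exons share 315 bases with Gm21970, and reads there were counted for both genes.

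Among the sensors and adaptors, Mavs, through which RIG-I and MDA5 signal, was the most abundant (12.3 CPM per kb, rank 4092). Mavs stood at 31.4 to 58.5 CPM in BALB/c control (median 38.8) and 25.8 to 38.8 CPM in BALB/c Txnip (median 34). In C57BL/6J it was 62.5, 50.8 and 32.7 CPM in control libraries and 41.5, 49.1 and 58.6 CPM in Txnip libraries. RIG-I itself, Ddx58, was far more variable, at 10.4 to 49.9 CPM in BALB/c control (median 20.4) and 15.2 to 64.8 CPM in BALB/c Txnip (median 26.9). Ddx58 was 8.21, 11.7 and 10.2 CPM in C57BL/6J control and 5.92, 10.2 and 8.69 CPM in C57BL/6J Txnip, so that the strains did not overlap in Txnip libraries and overlapped at the lower end of BALB/c in control libraries.

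The RNA-dependent kinase Eif2ak2 (PKR), which halts translation when it binds double-stranded RNA, was 3.27 to 11.2 CPM in BALB/c control (median 5.54) and 1.69 to 18.4 CPM in BALB/c Txnip (median 3.58). It was 1.07, 2.13 and 1.1 CPM in C57BL/6J control and 0, 2.18 and 3.43 CPM in C57BL/6J Txnip. Its exons share 174 bases with Gm26637, which had 32 counts in all. Myd88 was detected in all libraries, but 290 bases of its exons overlap the more abundant Acaa1a, whose reads cannot be told apart there. Ifih1 and Dhx58 were at 0.42 and 0.45 CPM per kb. The endosomal DNA sensor Tlr9 had 1 count in all libraries together, Zbp1 had 9, Tmem173 (STING) had 20 and Tlr3 had 42, so these genes were at or near the floor in most libraries.

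Irf3, the constitutive factor that sensors activate first, had the highest level per kilobase of all members (19.3 CPM per kb, rank 2620) and the smallest spread of those tested. Irf3 ranged from 48.5 to 62.9 CPM in BALB/c control (median 58.3) and from 48.5 to 63 CPM in BALB/c Txnip (median 54). It was 100.4, 83.4 and 95.1 CPM in C57BL/6J control and 95.6, 82.6 and 77.1 CPM in C57BL/6J Txnip, so that all 6 C57BL/6J libraries lay above all 12 BALB/c libraries. Irf3 lies on chromosome 7 (44997648 to 45002848, plus strand, GRCm38), and 88 bases of its exons overlap Bcl2l12, which had 208 counts in all libraries against 3501 for Irf3.

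Irf7, the interferon-inducible partner of Irf3, which lies on the same chromosome (141262706 to 141266481, minus strand), went the other way. It was 22 to 55 CPM in BALB/c control (median 27.6) and 17.4 to 83.6 CPM in BALB/c Txnip (median 40.6). In C57BL/6J it was 17.5, 9.23 and 4.67 CPM in control libraries and 4.84, 7.28 and 2.745 CPM in Txnip libraries, so each treatment's strains did not overlap. Irf9, the DNA-binding part of the interferon-activated complex, was 18.3 to 75.2 CPM in BALB/c control (median 24.8) and 13.3 to 122.6 CPM in BALB/c Txnip (median 30.1). It was 15.7, 9.23 and 9.07 CPM in C57BL/6J control and 16.2, 11.3 and 10.8 CPM in C57BL/6J Txnip, and the strains overlapped in Txnip libraries alone. Irf7 shares 45 exonic bases with Phrf1 and Irf9 shares 123 with Rnf31, and reads there were counted for both. Stat2 was 26.9 to 81.5 CPM over all libraries, and Irf1 exceeded 3 counts in 7 libraries.

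Among the antiviral effectors, the glycoprotein Lgals3bp had the highest level per kilobase (4.36 CPM per kb), and Isg15, a ubiquitin-like modifier, had 14 counts in all 18 libraries, 7 of them in BALB/c Txnip 3. Lgals3bp was 7.31 to 25.8 CPM in BALB/c control (median 10.4) and 3.07 to 59.3 CPM in BALB/c Txnip (median 14.2). It was 3.93, 2.13 and 2.47 CPM in C57BL/6J control, below every BALB/c control library, and 0, 10.2 and 2.06 CPM in C57BL/6J Txnip, which overlapped BALB/c Txnip.

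Mx2, a dynamin-like antiviral GTPase, was 2.69 to 11.8 CPM in BALB/c control (median 7.59) and 3.62 to 39.9 CPM in BALB/c Txnip (median 10.05). In C57BL/6J it had 0, 0 and 1 count in the control libraries and 0, 8 and 0 counts in the Txnip libraries, the highest of these (2.91 CPM) being below every BALB/c Txnip library. Rtp4, a target of interferon that inhibits flavivirus replication, was 0.489 to 11.2 CPM in BALB/c control (median 2.63) and 0.724 to 19.2 CPM in BALB/c Txnip (median 4.74). Rtp4 had 0 counts in each C57BL/6J control library and 0, 3 and 0 counts in the Txnip libraries. Of its exons 296 bases are shared with Gm45338, which had 3 counts in all.

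Oasl2, a homolog of the oligoadenylate synthetases, was 3.49 to 16.3 CPM in BALB/c control (median 5.61) and 1.21 to 61.4 CPM in BALB/c Txnip (median 3.11), and had 8, 1 and 1 counts in C57BL/6J control and 0, 8 and 0 in C57BL/6J Txnip. Ifit2, which binds viral RNA, was 0.962 to 11.8 CPM in BALB/c control (median 2.7) and 0 to 9.07 CPM in BALB/c Txnip (median 4.93), and had 4, 0 and 4 counts in C57BL/6J control and 0, 3 and 0 in C57BL/6J Txnip. Bst2 (tetherin), which holds budding virions at the membrane, was 0 to 4.49 CPM in BALB/c control (median 1.72) and 0.877 to 8.65 CPM in BALB/c Txnip (median 3.12), and had 0, 1 and 1 counts in C57BL/6J control and 0, 2 and 2 in C57BL/6J Txnip. Each of these effectors overlapped between strains in at least 1 treatment. Ifit1 and Ifit3 have closely related copies (Ifit3b among them), as do Oas1a and the Mx pair, and reads that fit several copies were not counted, so their levels are uncertain.

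Among the regulators, Adar, which edits double-stranded RNA, and the ubiquitin ligase Trim25, which activates RIG-I, were counted in every library, as were Parp9 and its partner Dtx3l, which share 458 exonic bases. Adar shares 1365 exonic bases with the neighbouring Chrnb2, which had 3896 counts in all against 2366 for Adar. Reads there were counted for both, so the level of Adar is uncertain. Usp18, which removes Isg15 from proteins and blocks the receptor, was 3.91 to 24.7 CPM in BALB/c control (median 6.18) and 2.41 to 45.2 CPM in BALB/c Txnip (median 9.07). It had 1, 3 and 2 counts in C57BL/6J control and 0, 5 and 2 in C57BL/6J Txnip, below every BALB/c library in CPM. Its exons share 124 bases with Gm44148, which had 83 counts in all against 476 for Usp18. Dtx3l was 8.31 to 25.3 CPM in BALB/c control (median 9.17) and 7.01 to 25.5 CPM in BALB/c Txnip (median 12.6), against 2.5, 5.32 and 4.12 CPM in C57BL/6J control and 1.35, 8.37 and 3.89 CPM in C57BL/6J Txnip.

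The spread between retinas was above that of other genes of like abundance for most members tested in BALB/c, and for few in C57BL/6J. The biological coefficient of variation that edgeR estimates for each gene exceeded the value for genes of like abundance in 15 of the 17 members tested in BALB/c, against 31.9% of all genes tested there, and in 3 of 13 members tested in C57BL/6J, against 28.2%. These counts do not show that the members varied less in C57BL/6J. Mx2, Usp18, Lgals3bp and Eif2ak2 were not tested there, and the median coefficient over all genes was 0.30 there and 0.18 in BALB/c. Over the members tested it was 0.35 in C57BL/6J and 0.33 in BALB/c. In the fit of all 4 groups the coefficient was largest for Mx1 (1.43), Ifit1 (1.07) and Oasl2 (0.98), and smallest for Irf3 (0.12), Ifnar1 (0.18) and Mavs (0.21). Mx1 had 0 to 15 counts in BALB/c control libraries, 0 to 25 in BALB/c Txnip libraries and 0 to 2 in C57BL/6J libraries, and Ifit1 had 0 to 25, 1 to 163 and 0 to 8. The median over all genes was 0.24. Of the 27 members tested in that fit, 21 lay above the value for genes of like abundance (32% of all genes) and 14 were in the top 10% of genes by this ratio.

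The summed effectors were 24.6, 31.3, 37.6, 55, 57 and 106.6 CPM in rising order in the BALB/c control libraries, with replicate 2 highest. In the BALB/c Txnip libraries they were 18.8, 33.3, 39.9, 51.6, 122.3 and 282.5 CPM in rising order, with replicates 2 and 3 highest. BALB/c Txnip 3 had the highest level of the 12 BALB/c libraries for 12 of the 17 members tested in that strain, while it was highest for 6.31% of all 12017 genes tested. Within the controls, BALB/c control 2 was highest for 10 of the 17 members and for 17.9% of all genes. The plot of the summed levels by role shows the same libraries high among the transcription factors and regulators, but not in the receptor, where BALB/c Txnip 3 (57 CPM) lay within the range of its group (44.4 to 72.2 CPM).

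**Figure D2:**
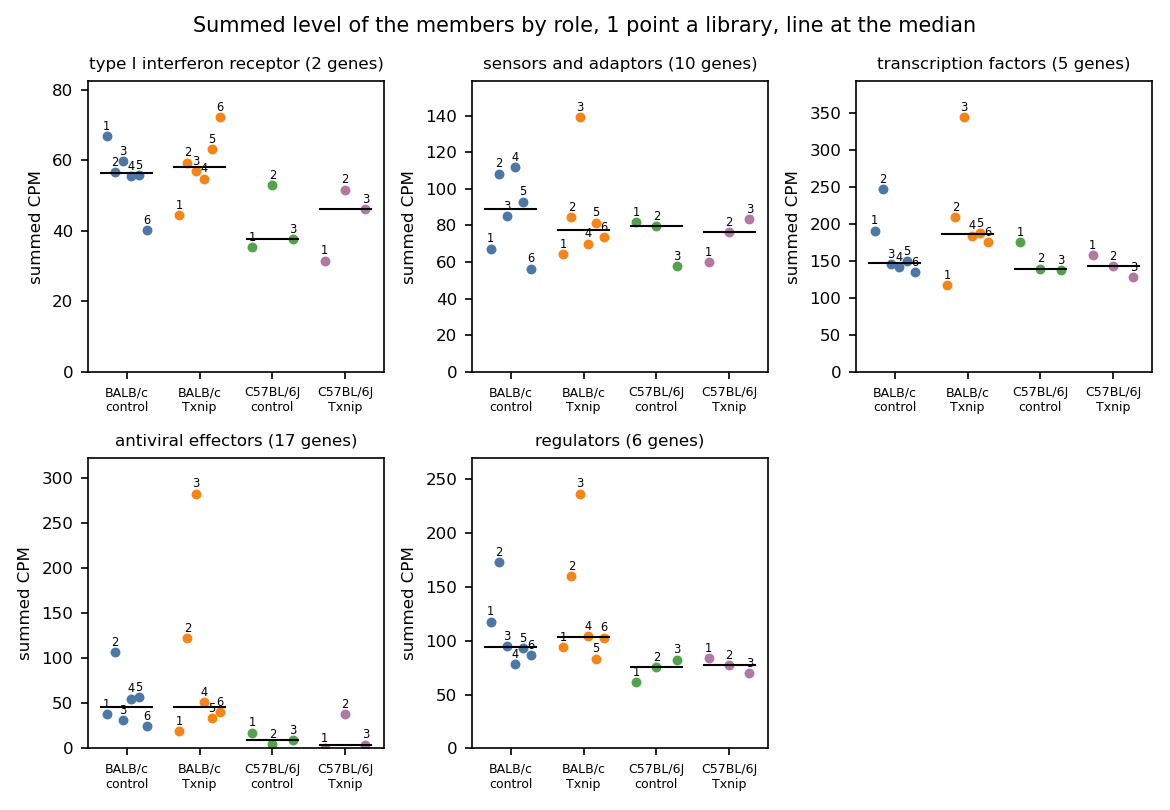
Summed CPM of the members of each role in each library (points, labelled with the replicate number; line at the group median). BALB/c Txnip 3 reaches 282.5 CPM in the effectors against 18.8 to 122.3 CPM in the other libraries of its group, and all 6 C57BL/6J libraries lie at 37.8 CPM or below.

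In C57BL/6J the summed effectors were 17.5, 4.61 and 8.8 CPM in control libraries and 0.269, 37.8 and 4.12 CPM in Txnip libraries. C57BL/6J Txnip 1 had a single count over the 17 effectors, of Oas2, in a library of 3750645 counts. The highest libraries of both groups were the rod-rich ones, C57BL/6J control 1 and Txnip 2. Endothelial markers were also highest there (38.6 and 61.9 CPM, against 2.15 to 14.4 CPM in the other 16 libraries), as were bipolar markers (322.5 and 490.1 CPM, against 70.3 to 146.8 CPM), and their part in the effector counts was not tested. In a sorted pool, fewer cells of a type and less RNA per cell cannot be told apart.

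Markers of other cells were not raised in BALB/c Txnip 3. Its microglia markers summed to 9.29 CPM, within the 7.01 to 23 CPM of its group. Csf1r had 37 counts there and the other 10 microglia markers 0 to 2 counts each, with Cx3cr1, P2ry12, Tmem119, C1qa, C1qc and Ctss at 0. Its other leukocyte markers summed to 0.844 CPM, its Müller glia markers to 110.8 CPM and its endothelial markers to 8.23 CPM, each within the range of the other BALB/c libraries. BALB/c Txnip 2 did differ in this respect, with 56 counts each of the neutrophil genes S100a8 and S100a9, which had 0 counts in the other BALB/c libraries, and their part in its effector level was not tested. BALB/c control 2 had 8 counts of the leukocyte gene Ptprc and microglia markers at 6.73 CPM, the lowest of its group. Over all libraries 7 of the 11 microglia markers exceeded 3 counts somewhere, and only Csf1r did so in all 18. Of the 10 interferon ligand genes, Ifna1 and Ifng had 0 counts in all libraries, and only Ifnb1 and Ifna4 (6 and 7 counts in all) exceeded 3 counts, each in 1 library. The ligands summed to 0 to 4.802 CPM, and to 0 in BALB/c control 2 and BALB/c Txnip 3.

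**Figure D3:**
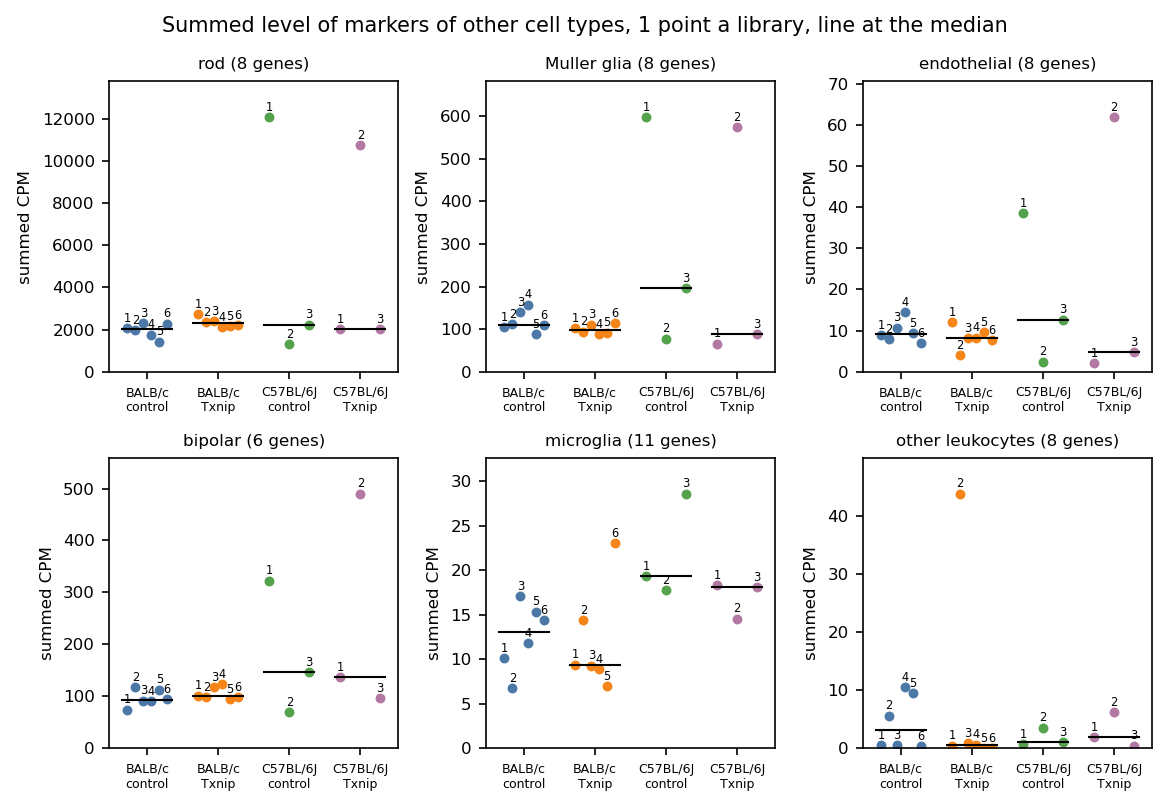
Summed CPM of markers of other cell types in each library (points, labelled with the replicate number; line at the group median). C57BL/6J control 1 and Txnip 2 stand apart in rod, Müller glia, endothelial and bipolar markers, BALB/c Txnip 2 stands apart in other leukocyte markers (43.8 CPM), and BALB/c Txnip 3 lies within the range of the other BALB/c libraries in every panel.

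Control cones of C57BL/6J at P35 carried more Irf3 and less Irf7, Usp18, Dtx3l, Mx2 and Rtp4 than those of BALB/c at P21. At an adjusted p under 0.05 (edgeR, quasi-likelihood fit, Benjamini-Hochberg over 14751 genes) 6 of the 27 members tested were called (22.2%), 1 higher and 5 lower in C57BL/6J, near the 17.6% of all genes (8.05% higher, 9.51% lower). There were 16 members at an unadjusted p under 0.05 (31.1% of genes). DESeq2 called 8 of 40 members and 6.09% of 43715 genes. That base includes genes of low count, so the share is not comparable with 17.6%. A fit of the 2 control groups alone called 10 of 19 members (52.6%), against 16.5% of genes, so the share of members depended on the libraries fitted. In the fit of all 4 groups 27 of the 40 members passed the filter on low counts and 13 did not. Of the 27, 13 also passed in each strain's own fit, 4 passed in that of BALB/c alone and 10 in neither, so that a member could enter the test through the group where it is high and neither the count nor a median over the 27 measures how far the members differ. As a description, the median log2 fold over the 27 was −1.52, or −1.33 with the 2 members at 0 in the C57BL/6J group placed at their bound, against −0.001 over all genes. Over the 9 members with at least 10 counts in every library, a filter that removes those low in 1 strain, it was −0.42, against 0.01 over all genes that pass. Retinal pigment epithelium markers summed to 2.45 to 10.9 CPM in BALB/c control and 0.275 to 2.13 CPM in C57BL/6J control. Microglia markers went the other way (6.73 to 17.1 and 17.7 to 28.6 CPM), and the part of either in the strain difference was not tested.

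Irf3 was 1.65-fold higher in C57BL/6J control cones (log2 0.72 ± 0.13 SE, edgeR adjusted p = 0.000284). Irf7 fell by 1.71 on the log2 scale (SE 0.45, edgeR adjusted p = 0.0103), Usp18 by 3.70 (SE 1.06, adjusted p = 0.0178) and Dtx3l by 1.69 (SE 0.52, adjusted p = 0.0275). Mx2 and Rtp4 were also called (edgeR adjusted p = 0.00501 and 0.0215), but with 1 and 0 counts in the C57BL/6J group their fitted folds are no measure. Counted over the groups, Mx2 was 59.5-fold higher in BALB/c, with an exact 95% interval of 10.5 to 2372 for counting error, and Rtp4 was at least 3.95-fold higher in BALB/c against 3 counts in each C57BL/6J library. The receptor genes Ifnar1 and Ifnar2, the adaptors Mavs and Myd88 and the regulators Adar and Trim25 were not called, with log2 values between −0.54 and 0.27.

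The Txnip libraries, which the control contrast does not use, gave the strain difference again in separate retinas, in 1 fit that shares the estimate of the spread. Here 12 of 27 members were called (44.4%), 1 higher and 11 lower in C57BL/6J, against 17.6% of all genes (8.24% higher, 9.38% lower), with 19 members at an unadjusted p under 0.05 (30.2% of genes). DESeq2 called 12 of 40 members and 6.33% of 43715 genes, genes of low count included. A fit of the 2 Txnip groups alone called 12 of 23 members (52.2%), against 17.7% of genes. The filter is that of the control contrast, so the count does not measure how far the members differ. Ifit2, Oasl2, Bst2 and Rtp4 passed it in neither strain's own fit, and Mx2, Usp18 and Lgals3bp in that of BALB/c alone. In the fit of all 4 groups all 6 members called in control cones (100%) were called again in the same direction and make up 50% of its 12. Over all genes 63.4% of those called in control cones were called again in the same direction, and these make up 63.2% of those called in Txnip cones. The 6 further members were Ddx58, Irf9, Ifit2, Oasl2, Bst2 and Lgals3bp.

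Irf3 was 1.58-fold higher in C57BL/6J Txnip cones (log2 0.66 ± 0.13 SE, edgeR adjusted p = 0.000854). Irf7 fell by 3.20 on the log2 scale (SE 0.50, edgeR adjusted p = 7.5e-05), Irf9 by 1.98 (SE 0.55, adjusted p = 0.0149) and Ddx58 by 1.97 (SE 0.48, adjusted p = 0.00571). Lower in C57BL/6J as well were Usp18 (log2 −4.59 ± 1.02 SE, edgeR adjusted p = 0.00291), Mx2 (−4.12 ± 0.96 SE, adjusted p = 0.00423), Oasl2 (−4.38 ± 1.26 SE, adjusted p = 0.018) and Bst2 (−3.17 ± 1.00 SE, adjusted p = 0.0305), all of them with few counts in C57BL/6J. All 8 C57BL/6J Txnip counts of Mx2, and all 8 of Oasl2, came from the rod-rich Txnip 2. Without that library the group is at 0 for both, and the fitted values (−8.41 and −8.67) are no measure. Lgals3bp fell by 2.59 (SE 0.84, edgeR adjusted p = 0.0353) and Dtx3l by 1.72 (SE 0.51, adjusted p = 0.0219). Ifit2 and Rtp4 were called (edgeR adjusted p = 0.0223 and 0.0237) with 3 counts each in the C57BL/6J group. By counts over the groups Ifit2 was 20.8-fold higher in BALB/c (exact 95% interval 6.87 to 103, counting error only) and Rtp4 29.9-fold (10 to 147). All 3 C57BL/6J counts of each came from the rod-rich Txnip 2, and 91 of the 124 BALB/c counts of Rtp4 from BALB/c Txnip 3. Without BALB/c Txnip 3, which was left out after seeing the data, the ratios were 15.2 (4.86 to 76.6) for Ifit2 and 11.7 (3.66 to 59.4) for Rtp4.

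**Figure D4:**
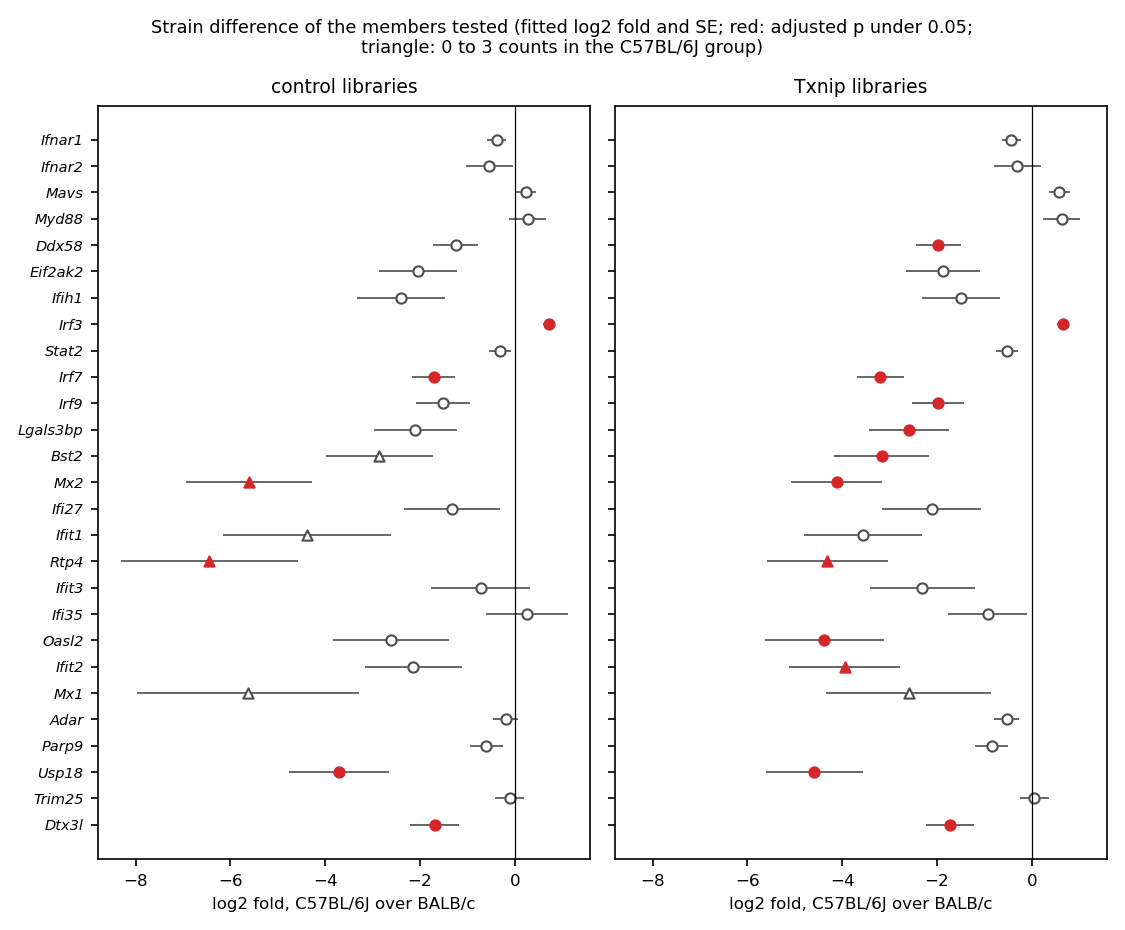
Fitted log2 fold (C57BL/6J over BALB/c, with SE) of the 27 members tested, in control libraries (left) and in Txnip libraries (right); red points passed an adjusted p under 0.05, and triangles mark members with 0 to 3 counts in the C57BL/6J group, whose fitted value is no measure. Irf3 is the only red point above 0 in either panel, at 0.72 and 0.66.

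Single libraries decided part of these calls. In control cones the number of members called was 2 of 28 without C57BL/6J control 3 (Irf3 and Mx2, with 10.4% of all genes called), and 4 of 29 without C57BL/6J control 1 (14.6% of all genes). Without C57BL/6J control 3 the log2 values of the lost Irf7, Usp18 and Dtx3l were −1.33, −3.57 and −1.71. Dtx3l was also lost in control cones without BALB/c control 2 or 5. In Txnip cones the number called was 7 of 25 without BALB/c Txnip 3 (14.7% of all genes), 6 of 28 without C57BL/6J Txnip 1 (12.5%) and 5 of 28 without C57BL/6J Txnip 3 (11.9%), so that fewer of all genes were called too. Bst2, Dtx3l, Lgals3bp, Oasl2 and Rtp4 were lost in each of these 3 fits, with log2 values of −3.34 to −2.57 for Bst2, −1.64 to −1.29 for Dtx3l and −3.76 to −3.41 for Rtp4. Ifit2 was lost without C57BL/6J Txnip 1 or 3 (edgeR adjusted p = 0.0927 and 0.107), and Irf9 without C57BL/6J Txnip 3 (0.0704, log2 −1.87). Lgals3bp was called in 20 of 26 alternatives. It was also lost without BALB/c Txnip 2 (edgeR adjusted p = 0.0649), with robust estimation (0.0819) and in a fit of the 2 groups alone (0.0718), and its log2 value was −1.91 without BALB/c Txnip 3 and −4.36 without C57BL/6J Txnip 2. Oasl2 was called in 22 of 26, was also lost with robust estimation (edgeR adjusted p = 0.0529), and was at −3.07 without BALB/c Txnip 3. Without both rod-rich libraries 5 of 28 members were called in control cones (17.6% of all genes) and 16 of 28 in Txnip cones (20.5%). Irf3 and Mx2 in control cones, and Irf3, Irf7, Ddx58, Usp18 and Mx2 in Txnip cones, were called under every alternative in which they were tested. Without BALB/c Txnip 3 the log2 difference in Txnip cones was −2.88 for Irf7, −1.43 for Irf9 and −3.33 for Mx2. Usp18 ranged from −5.91 to −3.89 on leaving out 1 library. Both strains were aligned to GRCm38, a C57BL/6J genome, and how far strain variants change the counts of a member was not tested.

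With the filter on low counts, Txnip was not followed by a called change of any member tested in either strain. In BALB/c 17 members were tested and 0 were called by edgeR, where the test called 2 of 12017 genes (0.0166%). At an unadjusted p under 0.05 there was 1 member (Mx2), against 11.4% of all genes, and DESeq2 called 0 of 40 members (0.186% of genes). The fitted values leaned upward, with a median log2 fold of 0.34 over the 17 members and 0.0002 over all genes, and 13 of them positive. The largest were Mx2 (1.08 ± 0.50 SE, edgeR adjusted p = 0.412), Usp18 (1.00 ± 0.57 SE, adjusted p = 0.5085), Lgals3bp (0.97 ± 0.50 SE, adjusted p = 0.467) and Irf9 (0.69 ± 0.42 SE, adjusted p = 0.55). Irf7 had a log2 fold of 0.40, Ddx58 of 0.47, Dtx3l of 0.21 and Irf3 of −0.07.

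The lean was smallest without BALB/c Txnip 3. Without it the median over the 17 members was 0.04, and the log2 fold was 0.22 for Mx2, 0.26 for Usp18, 0.27 for Lgals3bp, 0.08 for Irf9 and 0.04 for Irf7. With no filter on low counts edgeR called 6 members higher with Txnip in BALB/c (Oasl2, Ifit1, Lgals3bp, Irf9, Usp18 and Mx2, adjusted p 2.34e-06 to 0.002925), which is 15% of the 40, among 1400 genes called (3.42%, 165 higher and 1235 lower). Without that library (an alternative chosen after seeing the data) the same unfiltered fit called 0 of the 40 members, with adjusted p of 0.58 to 0.91 for those 6, among 695 genes called. Leaving out BALB/c control 2, the highest control, moved the median to 0.46, with 8 of 17 members at an unadjusted p under 0.05 (10.1% of all genes), 7 higher and 1 lower. Without BALB/c Txnip 1 the median was 0.61, with 9 of 20 members at an unadjusted p under 0.05 (12.7% of all genes), all higher with Txnip. In both fits 0 members were called by edgeR at an adjusted p under 0.05, against 2 and 254 genes.

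**Figure D5:**
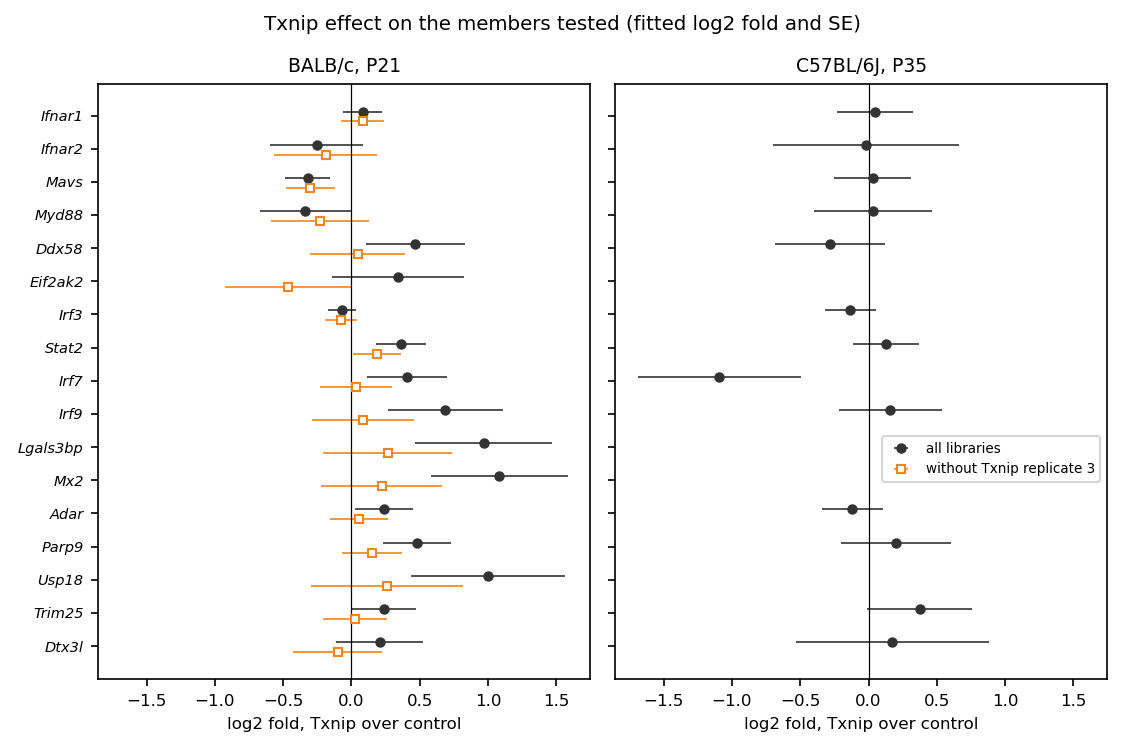
Fitted log2 fold (Txnip over control, with SE) of the members tested in BALB/c (17, left) and C57BL/6J (13, right); black circles use all libraries of the strain, open orange squares leave out BALB/c Txnip 3. No member passed an adjusted p under 0.05, and the values of Mx2, Usp18 and Lgals3bp near 1 in BALB/c fall to between 0.22 and 0.27 without that library.

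In C57BL/6J 13 members were tested, none of them an effector, and 0 were called by edgeR or DESeq2; 2 of 12974 genes were called by edgeR (0.0154%) and 2 by DESeq2 (0.00565%). No member had an unadjusted p under 0.05, as did 0.748% of genes. The median log2 fold was 0.03 over the 13 members and 0.01 over all genes. Irf7 was at −1.09 (SE 0.60, edgeR adjusted p = 1), Ddx58 at −0.28, Irf9 at 0.16, Dtx3l at 0.17 and Irf3 at −0.13. With 3 libraries a group the intervals are wide, and these values do not show that Txnip left the members unchanged.

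The difference between the strains in the effect of Txnip was tested in the fit of all 4 groups. edgeR called 0 of 14751 genes (0%), and so 0 of 27 members, and DESeq2 called 0 genes. At an unadjusted p under 0.05 there were 706 genes (4.79%) and 1 member, Irf7, with a log2 difference of −1.49 (edgeR adjusted p = 0.959). With no filter Irf7 was called (log2 −1.48, edgeR adjusted p = 0.0428), among 186 genes.

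Other genes of the pathway came from a list of further ligands, receptors, sensors and targets. Of 49 tested in the fit of all 4 groups, 11 were called in control cones (22.4%, 2 higher and 9 lower in C57BL/6J) and 15 in Txnip cones (30.6%, 2 higher and 13 lower), against 17.6% of all genes in either. The share in control cones is near that of all genes, and these genes passed the same filter as the members. The 10 called in both make up 90.9% of the first list and 66.7% of the second, and include Apobec3, Gbp3, Trim21, Nlrx1, Ticam1 and Shisa5. Apobec3, which mutates retroviral DNA, fell by 1.56 on the log2 scale in control cones (edgeR adjusted p = 0.000168) and by 2.31 in Txnip cones (adjusted p = 2.8e-06). Nlrx1, a mitochondrial protein that restrains Mavs signalling, was higher in C57BL/6J by 1.40 in control cones (edgeR adjusted p = 0.00188) and by 1.32 in Txnip cones (adjusted p = 0.00362). None of 37 tested in BALB/c or of 32 tested in C57BL/6J was called for Txnip by edgeR, with 6 (16.2%, against 11.4% of all genes) and 0 (against 0.748%) at an unadjusted p under 0.05, and DESeq2 called 0 in either strain. With no filter on low counts edgeR called 9 of 92 in BALB/c, 5 higher and 4 lower with Txnip, among the 1400 genes called, and 0 of 92 without BALB/c Txnip 3.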

How the data were processed

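RNA-seq counts of sorted cones were analysed in 18 libraries. The deposited values are read counts per gene, which the authors made with STAR, GRCm38.p6 and featureCounts v1.6.2 (Ensembl 94 genes), from modified Smart-Seq2 libraries without molecular identifiers. Per the file headers reads were paired and unstranded, reads overlapping several genes were counted for each, and multimapped reads were not counted. Deposited tables of the authors' own comparisons (fold changes and p-values) were not used. Library totals were 647712 to 5172156 counts.

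Groups came from strain and treatment in the labels. Counts were tested with edgeR 4.0.16 in R 4.3.3 (filterByExpr, TMM, glmQLFit, glmQLFTest) with Benjamini-Hochberg adjustment over all genes tested at 0.05: Txnip within each strain, and strain and interaction contrasts in 1 fit of the 4 groups. DESeq2 1.42.0, other scalings and filters, robust estimation, a replicate block and leaving out libraries were alternatives. The scripts were tested on simulated data. Values in every library (in groups of 6, the lowest, median and highest) are given for members called in a comparison, among the 3 of highest level per kilobase or among the 3 of largest SD over mean CPM within a group (of those tested in that strain's own fit), and of other pathway genes up to 5 a comparison are named. The members and lists were chosen with earlier results of these data known. Correlations showed no pairing of the libraries by replicate number, which cannot exclude that same-numbered retinas came from the same animal. The closest pair of replicates, BALB/c Txnip 5 and 6, differed by 1.91 times sampling noise (chi-square per degree of freedom). So no pair was the same library sequenced again, and whether any came from the same retina was not tested by this.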

Additional observations from a re-analysis of the deposited data

Results flagged for a closer look

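In groups of 6 libraries, 40 sets of values were checked for a highest or lowest library far from the rest by Dixon's criterion, and 9 stood out. Chance gives about 1 in 20 for normally distributed values, which CPM of low counts need not be. Some members were also named for their spread, so 9 of 40 is not a test against that rate. The members are not independent, and all 9 came from 2 libraries. In BALB/c control 2 these were Ifit2 (11.78 CPM, against 0.962 to 4.802 CPM in the others of its group), Irf9 (75.2, against 18.3 to 31.9), Lgals3bp (25.81, against 7.31 to 11.8), Oasl2 (16.27, against 3.49 to 7.08) and Usp18 (24.69, against 3.91 to 9.15). In BALB/c Txnip 3 they were Mx2 (39.88 CPM, against 3.62 to 16.9), Oasl2 (61.4, against 1.21 to 23.6), Rtp4 (19.2, against 0.724 to 5.90) and the summed sensors and adaptors (139.1, against 64.4 to 84.4).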

How the results depend on the processing

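Irf3 kept its direction and its call in both strain contrasts under all alternatives run. With no filter on low counts, 6 members were called for Txnip in BALB/c (1400 genes in all), 14 of 40 for strain in control cones (6.27% of genes), 16 of 40 in Txnip cones (6.03%) and 1 for the interaction (186 genes), and 5 genes for Txnip in C57BL/6J; without BALB/c Txnip 3 as well, 695 genes were called in BALB/c and the log2 value of Dtx3l was −0.091. With at least 10 counts in every library, 9 members could be tested for strain: 2 were called in control cones (1516 genes) and 4 in Txnip cones (1476 genes), and 0 genes were called for Txnip in either strain. DESeq2 called 76 genes in BALB/c. A fit of the 2 control groups alone called 10 of 19 members (52.6%, against 16.5% of genes). A fit of the 2 Txnip groups alone called 12 of 23 (52.2%, against 17.7%). Without the rod-rich libraries 2 genes were called for the interaction and Dtx3l in C57BL/6J was at −0.831. The cause of these changes was not tested, beyond the smaller number of genes that the stricter filter leaves.

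Leaving out 1 library at a time gave 0 members and 2 to 254 genes called for Txnip in BALB/c, 0 members and 2 genes in C57BL/6J, 2 to 8 members and 1604 to 2929 genes for strain in control cones, 5 to 16 members and 1848 to 2874 genes in Txnip cones, and 0 members and 0 to 1 genes for the interaction. Dtx3l ranged from −0.101 to 0.463 in BALB/c and from −0.611 to 0.615 in C57BL/6J, and Irf9 from −0.026 to 0.473 in C57BL/6J, all on the log2 scale. The mean summed effectors ranged from 53.2 to 105.9 CPM in BALB/c Txnip and from 2.19 to 21.0 CPM in C57BL/6J Txnip, lowest without replicates 3 and 2.

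Replicate numbers are shared between groups in the labels, but same-numbered libraries did not deviate together (correlations −0.067 to 0.104 in BALB/c and −0.099 to 0.071 in C57BL/6J), and 2 of 12 and 0 of 6 libraries correlated best with their own number. The replicate block gave 8 of 27 members for strain in control cones (29.6%, against 1645 genes or 11.2%). In Txnip cones it gave 13 of 27 (48.1%, against 1809 genes or 12.3%). For Txnip it gave 0 members, with Dtx3l at −0.033 in C57BL/6J. Precision is limited for the effectors with 0 to 3 counts in a library, although the C57BL/6J libraries were deeper at the median than the BALB/c ones.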
